A study of Mus musculus with 2 samples.

Results

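Small leucine-rich proteoglycans were examined in ureters of mouse embryos that carried a gain of function of Tbx2, against ureters of control embryos. The 10 genes were Epyc, Kera, Lum, Dcn, Ogn, Omd, Aspn, Fmod, Prelp and Bgn. They were selected on the log2 ratios measured in this same comparison, so those ratios are given as a description, with no test of the genes as a group. Each was represented by 1 probe, so that 10 of the 39429 probes, and 10 of the 31870 gene names on the array, were taken. The probe of Kera was printed in 10 spots and each other probe in 1 spot. Of the 10 genes, 8 were bright enough to be tested, and Omd and Prelp were too dim.

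The study used 2 two-colour oligonucleotide arrays of whole ureters from male NMRI mouse embryos at stage E13.5. On each array, RNA of Tbx2-GOF ureters, genotype Tbx18(cre/+);Hprt(Tbx2/Y), was hybridised together with RNA of control ureters, genotype Tbx18(+/+);Hprt(Tbx2/Y). Controls thus carried the Hprt-linked Tbx2 allele as well, and the genotypes differed in the cre at one Tbx18 allele. The Tbx18 promoter, which drives cre, is active in the progenitors of the ureteric mesenchyme, so recombination is directed to those cells while the RNA came from the whole organ. The Tbx2-GOF RNA was labelled red (AlexaFluor647) on array 1 and green (AlexaFluor555) on array 2. Whether the arrays used RNA from separate embryos is not given in the labels. Each p-value therefore reflects the scatter between these 2 arrays alone, in large part pooled over all genes, and that scatter may be technical. Array and dye orientation cannot be told apart, because each orientation was used once.

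Small leucine-rich proteoglycans are secreted proteins of the extracellular matrix whose core is a short solenoid of leucine-rich repeats. Many bind collagen fibrils and set their diameter and spacing, and several bind growth factors of the TGF-beta family. The core proteins can carry chondroitin, dermatan or keratan sulfate chains. Several of the genes lie side by side in the genome: Dcn, Lum, Kera and Epyc neighbour each other on mouse chromosome 10, and Aspn, Omd and Ogn on chromosome 13. TBX2 is a T-box transcription factor known mainly as a repressor, and it binds DNA through a short element with the core letters GGTGTG.

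Since each value rests on 1 probe, the first 30 of the 60 bases of the probes behind the cluster comparison are shown, with the position of the whole probe on mm9 as the scanner files give it.
Epyc probe, chr10:97143965-97144024: atctcttcagaagcaaactcagtatatttg
Kera probe, chr10:97076230-97076289: gcagttattataacatagcatgcaaactat
Lum probe, chr10:97035210-97035269: taagcatttgcacggttacttagtgaaact
Dcn probe, chr10:96980233-96980292: aacaccttcagatgtgtctatgtgcgttct
Ogn probe, chr13:49719549-49719608: cattaaagcatctgtgaactgtaaggccac
Aspn probe, chr13:49662479-49662538: ctcaactcataataaagcttcaagtattca
The probes' G and C content lay between 35.0% for Epyc and 48.3% for Bgn, against a median of 41.7% over all probes on the array. With each pair of probes slid along each other without gaps, no probe of these genes matched another of them at more than 27 bases.

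Among the 8 measurable genes, Epyc and Lum fell in Tbx2-GOF ureters, and the other 6 did not pass the test. Epyc averaged -1.66 ± 0.44 and Lum -1.16 ± 0.22 on the log2 scale of Tbx2-GOF over control (mean ± SD, n = 2 arrays), which is 3.17-fold and 2.23-fold lower in Tbx2-GOF. Aspn, at -0.52 ± 0.26, and Kera, at -0.40 ± 0.60, had lower means, Dcn and Ogn lay at -0.20 ± 0.18 and -0.19 ± 0.26, Fmod at -0.05 ± 0.09, and Bgn at 0.24 ± 0.24 was the only one with a mean above 0. The test was limma's moderated test over all 21098 measurable genes, with Benjamini-Hochberg adjustment at 0.05. It called 136 genes, which is 0.645% of those tested, and 60 of them, or 0.284%, were lower in Tbx2-GOF. The count of 2 called among 8 genes was fixed in part by how the genes were chosen, and nothing is read from it. Neither gene passed when the scanner software's processed signals, the deposited value table or median centring in place of loess was used, although over the settings tried the mean ratio of Epyc ranged from -1.97 to -1.63 and that of Lum from -1.23 to -1.15. In whole ureters, fewer cells that make a transcript and less of it per cell cannot be told apart.

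**Figure D1:**
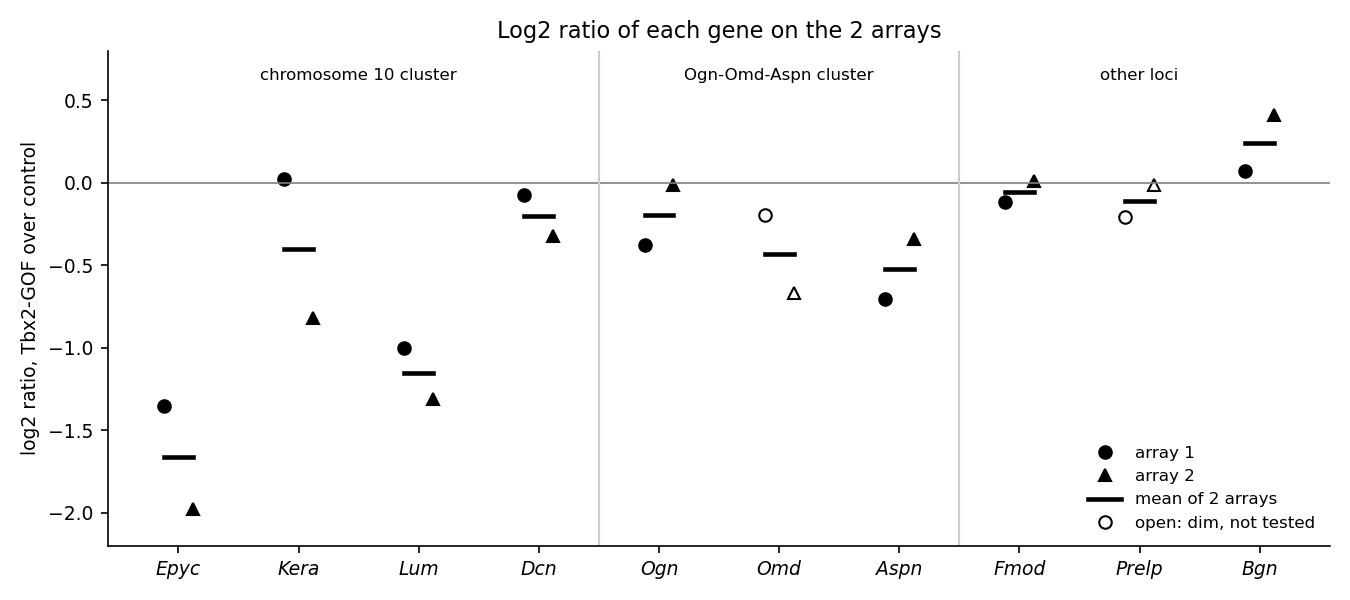
Log2 ratio of Tbx2-GOF over control for the 10 genes, with array 1 as circles, array 2 as triangles and their mean as a bar; open symbols are the dim genes Omd and Prelp. Epyc and Lum lie below -0.99 on both arrays, and Kera lies at 0.02 on array 1 and -0.82 on array 2.

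The chromosome 10 cluster held both genes that fell. Epyc encodes epiphycan, a class III member known from growth plate cartilage. Its normalized intensity was 281 and 352 in Tbx2-GOF ureters on arrays 1 and 2, against 717 and 1387 in control ureters. All Tbx2-GOF values lay below all control values, and the ratio was 2.55-fold lower in Tbx2-GOF on array 1 and 3.94-fold lower on array 2. With 2 values in each group such separation is easily reached, and its share over all genes was not counted. Only 8 of the 21098 tested genes had a lower mean ratio than Epyc.

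Lum encodes lumican, a class II member that carries keratan sulfate in the cornea and binds fibrillar collagen in many connective tissues. Its normalized intensity was 53279 and 55247 in Tbx2-GOF ureters, against 106528 and 137224 in control ureters. The groups did not overlap, which is easily reached with 2 values in each and was not counted over all genes. The log2 ratios were -0.9996 and -1.31. Lum had the 51st lowest mean ratio of the 21098 genes. The 3 genes whose pair of ratios lay nearest to that of Lum were Scara5, Ptgfr and Ttr, at Euclidean distances of 0.09, 0.11 and 0.12 over the 2 arrays, and 9 genes lay within 0.2. Ttr, for transthyretin, a plasma carrier protein, was also among the liver markers described below.

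Kera encodes keratocan, a class II member best known from the corneal stroma. The probe gave a normalized intensity of 412 and 466 in Tbx2-GOF ureters, against 405 and 824 in control ureters, so the groups overlapped. The log2 ratio was 0.02 on array 1 and -0.82 on array 2. Within each hybridisation the 10 spots of its probe ran from -0.06 to 0.14 on array 1 (SD 0.07) and from -0.91 to -0.72 on array 2 (SD 0.07). The spots are repeats within 1 array and do not measure the spread between arrays. Among 317 measurable probes with 10 spots, the median SD over spots was 0.06 on each array.

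Dcn encodes decorin, a class I member that carries a single chondroitin or dermatan sulfate chain, coats collagen fibrils and binds TGF-beta. Its normalized intensity was 141101 and 151896 in Tbx2-GOF ureters, against 148346 and 190389 in control ureters. The groups overlapped, and the log2 ratios were -0.07 and -0.33. No spot of Dcn or of the other 9 genes was saturated.

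In the Ogn, Omd and Aspn cluster no gene passed the test. Aspn encodes asporin, a class I member with an aspartate-rich stretch that binds TGF-beta. In Tbx2-GOF ureters its normalized intensity was 850 and 1577, against 1385 and 2000 in control ureters. Each array gave the lower value in Tbx2-GOF, at -0.70 and -0.34, but the Tbx2-GOF value of array 2 exceeded the control value of array 1.

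Ogn encodes osteoglycin, also called mimecan, a class III member. Intensities of 15011 and 25278 were found in Tbx2-GOF ureters, against 19494 and 25488 in control ureters. The groups overlapped, with log2 ratios of -0.38 and -0.01. Its ratios were common ones: 1308 genes lay within a Euclidean distance of 0.2, the nearest being Arhgap26, Gm8393 and Brca1, whereas 9 genes lay that near to Lum.

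Omd encodes osteomodulin, also called osteoadherin, a class II member known from bone. Its signal was well above background on 0 of 2 arrays in Tbx2-GOF ureters and on 1 of 2 in control ureters. The normalized intensities were 79.6 and 79.4 in Tbx2-GOF, against 91.2 and 126 in control. The log2 ratios were -0.20 and -0.67. On array 1 the control value lay below 96.5, the lowest Tbx2-GOF signal well above background there, so no fold is given for Omd and it was not tested.

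The remaining genes lie elsewhere. Fmod encodes fibromodulin, a class II member that modulates collagen fibrils in tendon. The gene had a normalized intensity of 1127 and 1163 in Tbx2-GOF ureters, against 1223 and 1154 in control ureters, and its log2 ratios were -0.12 and 0.01. Bgn encodes biglycan, the X-linked class I relative of decorin. It had a normalized intensity of 3047 and 3478 in Tbx2-GOF ureters, against 2902 and 2613 in control ureters. Both Tbx2-GOF values of Bgn lay above both control values, yet its mean ratio of 0.24 did not pass the test. How many of all genes separate in this way was not counted. Prelp encodes a class II member found next to basement membranes and was dim, with 128 and 93.9 in Tbx2-GOF ureters against 148 and 94.8 in control ureters. It was well above background on 1 of 2 arrays in each genotype and was not tested.

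**Figure D2:**
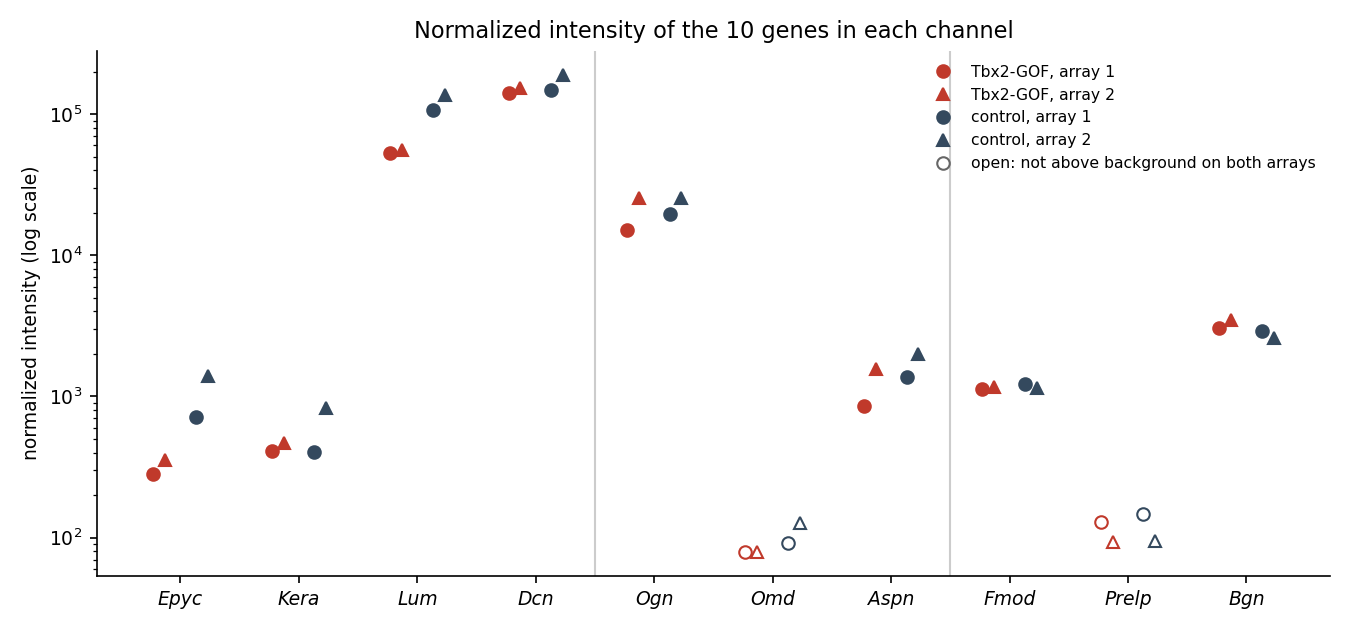
Normalized intensity (log axis) of each gene in the Tbx2-GOF channel (red) and the control channel (dark blue), with array 1 as circles and array 2 as triangles; open symbols mark a genotype not well above background on both arrays. Both Tbx2-GOF symbols lie below both control symbols for Epyc, Lum and the dim Omd, and both lie above for Bgn. The share of all genes that separate in this way was not counted.

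The 2 clusters were compared by the mean log2 ratio of their measurable genes. The chromosome 10 cluster averaged -0.60 on array 1 and -1.11 on array 2 over 4 genes, a mean of -0.85 ± 0.36. The Ogn, Omd and Aspn cluster averaged -0.54 and -0.18 over its 2 measurable genes, Ogn and Aspn, a mean of -0.36 ± 0.26. The difference was -0.06 on array 1 and -0.93 on array 2, a mean of -0.50 ± 0.62 (SD, n = 2 arrays). On array 1 the clusters were thus nearly level, and without array 2 the difference was -0.06. The SD exceeded the mean difference. With the dim Omd included, the Ogn, Omd and Aspn cluster averaged -0.43 and -0.34, a mean of -0.38 ± 0.06, and the difference was -0.17 on array 1 and -0.77 on array 2, a mean of -0.47 ± 0.42, so that the SD was then the smaller. The difference comes from the ratios on which the genes were selected and was not tested.

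The arrays ranked the genes as follows. All 4 chromosome 10 genes had the lower ratio on array 2, by -0.25 for Dcn, -0.31 for Lum, -0.63 for Epyc and -0.85 for Kera. Ogn and Aspn had the higher ratio on array 2, by 0.37 and 0.36, while the dim Omd had the lower ratio there, by -0.47. For scale, the SD between the arrays had a median of 0.14 and a 95th percentile of 0.48 over all genes. Epyc, with an SD of 0.44, lay below that percentile, and Kera, with 0.60, above it.

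**Figure D3:**
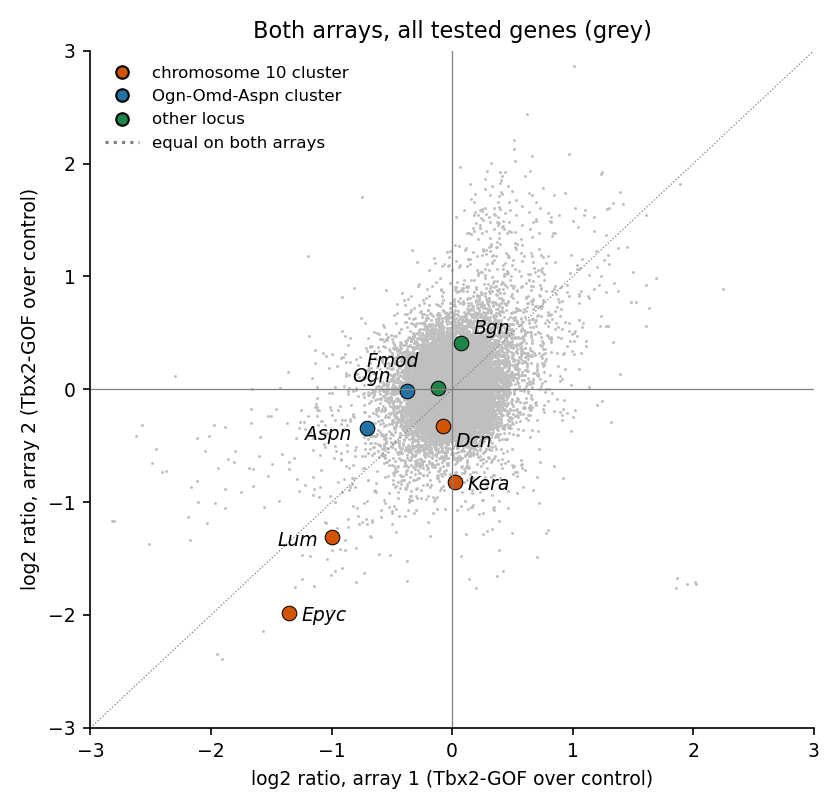
Log2 ratio of Tbx2-GOF over control on array 1 (horizontal axis) and array 2 (vertical axis) for all 21098 tested genes (grey; axes limited to 3 in each direction) and the 8 measurable genes (coloured by locus). The chromosome 10 genes lie below the dotted line of equal ratios, and Ogn and Aspn lie above it.

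Within the chromosome 10 cluster the ratio did not follow position. From Dcn the probes of Lum, Kera and Epyc follow at gaps of 54.9, 41.0 and 67.7 kb, and their mean ratios ran -0.20, -1.16, -0.40 and -1.66 in that order. Within 1 Mb of this cluster, whose probes span 164 kb, 9 further probes with 8 gene names were found. Only Btg1, an antiproliferative gene whose probe lies 898 kb away from it on the Dcn side, was measurable, at 0.21 ± 0.28, and it did not pass the test. The probes of Gm10754 and Ccer1, next to Epyc, and of 4930473O22Rik, within the cluster, were too dim to be tested.

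Within 1 Mb of the Ogn, Omd and Aspn cluster, whose probes span 57.1 kb, 35 other gene names were found, of which 23 were measurable. None of the 23 passed the limma test, where 0.645% of all genes did, and their mean ratios lay between -0.33 and 0.20 with a median of -0.03. The nearest measurable entry on the Aspn side, 6.84 kb away, was the transcript listed as ENSMUST00000021823, at -0.04 ± 0.38. The nearest with a gene symbol there was Ecm2, itself a leucine-rich matrix protein gene, at 34.3 kb and 0.14 ± 0.29. The probe of ENSMUST00000021823 lies between those of Ecm2 and Aspn, and its gene was not identified here. It could be a further reading of Aspn itself. The nearest on the Ogn side was Nol8, which encodes a nucleolar protein, at -0.01 ± 0.01. The mean ratio of Aspn was lower than that of any of the 23 measurable entries, and that of Ogn lay within their range.

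**Figure D4:**
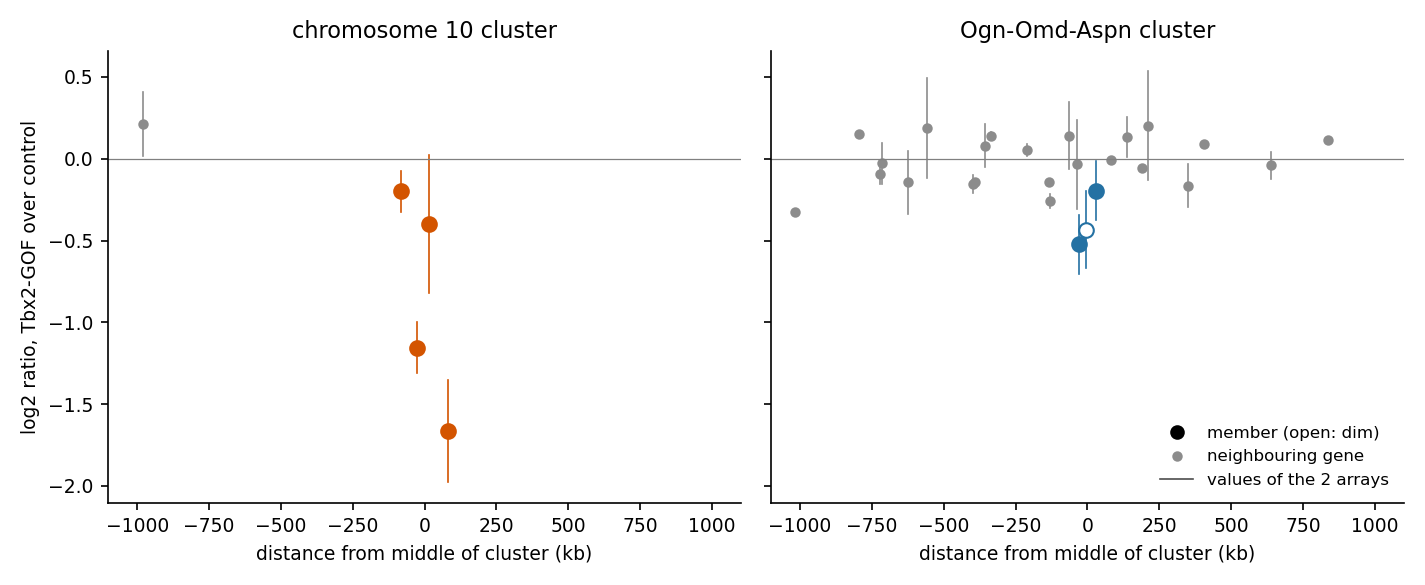
Mean log2 ratio of Tbx2-GOF over control against the distance of each probe from the middle of its cluster in kb, for the chromosome 10 cluster (left) and the Ogn, Omd and Aspn cluster (right); large points are the 7 genes of the clusters (Omd open, dim), small grey points are neighbouring genes, and lines join the values of the 2 arrays. Neighbours of the cluster on the right lie between -0.33 and 0.20, and the single measurable neighbour on the left lies at 0.21.

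Over all 8 measurable genes, 5 were lower in Tbx2-GOF on both arrays (Epyc, Lum, Dcn, Ogn and Aspn), as were 25.1% of all genes tested. At least 1.5-fold lower on both arrays were 2 of the 8, Epyc and Lum, as were 0.545% of all genes tested. Both counts come from the ratios on which the genes were selected. The median ratio of the 8 was -0.30, at -0.25 on array 1 and -0.33 on array 2, while the median over all genes was -0.0005. The structural classes did not separate: class I ran from -0.52 for Aspn to 0.24 for Bgn, class II from -1.16 for Lum to -0.05 for Fmod, and class III from -1.66 for Epyc to -0.19 for Ogn.

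The promoter table from RefSeq (GRCm38.p6) held 9 gene starts for 8 of the 10 genes, with Lum and Dcn unmatched. Each window runs from 250 bases before to 50 bases after a start. The windows of Epyc (1 of its 2 starts), of its neighbour Kera, and of Aspn and Ogn are shown as examples from each cluster. Capitals mark the T-box core GGTGTG or its other strand CACACC, and the TATA box TATAAA or its other strand TTTATA.
Epyc start region, chr10:97643818-97644117, + strand: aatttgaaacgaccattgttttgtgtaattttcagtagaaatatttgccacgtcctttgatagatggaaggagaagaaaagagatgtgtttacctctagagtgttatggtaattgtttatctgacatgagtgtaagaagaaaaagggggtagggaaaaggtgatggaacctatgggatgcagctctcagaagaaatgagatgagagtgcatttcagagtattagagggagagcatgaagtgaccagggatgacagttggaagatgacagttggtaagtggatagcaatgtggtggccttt
Kera start region, chr10:97606955-97607254, + strand: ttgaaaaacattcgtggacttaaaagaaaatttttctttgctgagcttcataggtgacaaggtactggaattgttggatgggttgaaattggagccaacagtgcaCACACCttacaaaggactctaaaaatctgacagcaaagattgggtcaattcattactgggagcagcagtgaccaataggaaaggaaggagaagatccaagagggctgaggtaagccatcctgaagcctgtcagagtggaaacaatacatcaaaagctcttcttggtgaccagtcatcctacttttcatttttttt
Aspn start region, chr13:49544193-49544492, + strand: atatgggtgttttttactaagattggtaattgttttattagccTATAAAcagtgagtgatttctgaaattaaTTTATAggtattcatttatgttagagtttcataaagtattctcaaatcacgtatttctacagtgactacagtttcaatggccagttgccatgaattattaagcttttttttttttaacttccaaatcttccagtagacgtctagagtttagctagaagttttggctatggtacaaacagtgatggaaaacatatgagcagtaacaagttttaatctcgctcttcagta
Ogn start region, chr13:49607765-49608064, + strand: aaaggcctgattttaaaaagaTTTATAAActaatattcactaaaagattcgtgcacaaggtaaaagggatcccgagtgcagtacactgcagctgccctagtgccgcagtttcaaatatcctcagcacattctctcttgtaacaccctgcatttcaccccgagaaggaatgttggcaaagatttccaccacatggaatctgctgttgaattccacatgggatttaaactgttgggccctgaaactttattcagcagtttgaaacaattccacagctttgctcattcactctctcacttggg
The longer T-box half-site AGGTGTGA, which contains the core, was in 0 of the 9 windows on either strand, and in 1.27% of 32851 mouse windows. The core GGTGTG was in 3 of the 9 windows, against 19.1% of all windows: in Kera at -145, in Omd at 42 and in Prelp at -173 relative to the start. The window of Epyc shown and that of its other start held none of these motifs. Aspn held TATAAA at 2 places, -207 and -178 relative to the start. Ogn held it at 2 overlapping ones, -229 and -227, the strands sharing letters. Of all windows, 13.6% held it. These are matches of letters only, and say nothing of binding.

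Genes that work with these proteoglycans mostly did not pass the test. Of 6 measurable further genes of the family (Chad, Tsku, Podn, Podnl1, Optc and Ecm2), 0 passed, and their median ratio was 0.08. Optc, for opticin, a class III relative of Epyc and Ogn, lay at 0.20 ± 0.03, and Tsku, for tsukushi, at -0.16 ± 0.33. Of 23 other matrix and cell surface proteoglycans, 1 rose, 0 fell and the median was 0.03. The gene that rose was Spock2, for a testican, a secreted calcium-binding proteoglycan. It had 652 and 526 units of normalized intensity in Tbx2-GOF ureters, against 384 and 269 in control ureters (log2 ratio 0.87 ± 0.15, limma adjusted p = 0.0470). Its relatives Spock1 and Spock3 lay at 0.92 ± 0.36 and 0.63 ± 0.12 and did not pass.

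Collagens and the enzymes around them showed a single call. Of 19 measurable fibrillar and fibril-associated collagen genes, 0 rose and 1 fell, with a median of -0.01. The gene that fell was Col24a1, a fibrillar collagen known from developing bone and cornea. Its normalized intensity was 903 and 745 in Tbx2-GOF ureters, against 1503 and 1499 in control ureters (log2 ratio -0.87 ± 0.19, limma adjusted p = 0.0499). The main fibril-forming genes did not pass, with Col1a1 at -0.03 ± 0.43, Col1a2 at -0.005 ± 0.13 and Col3a1 at -0.10 ± 0.26.

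None of 8 collagen cross-linking enzymes passed the limma test (median -0.05, with Plod2, a collagen lysyl hydroxylase, farthest from 0 at -0.49 ± 0.27). The same held for 20 measurable genes of chondroitin and dermatan sulfate synthesis (median 0.01, with the sulfotransferase gene Chst15 at 0.63 ± 0.13) and 9 of keratan sulfate synthesis (median 0.03, with Chst5 at 0.62 ± 0.03). None of 14 TGF-beta ligands, receptors, SMADs and latent binding proteins passed (median -0.02, with the ligand genes Tgfb1 at 0.37 ± 0.24 and Tgfb3 at -0.36 ± 0.10). Nor did any of 9 proteases known to cut these proteoglycans (median -0.01, with Tll1 at 0.58 ± 0.08). Over all genes 0.645% passed, and 1970 genes had an unadjusted p under 0.05.

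Markers of the cells in which these genes are usually found were read beside them. Of 12 measurable fibroblast markers, 1 fell, 7 were lower in Tbx2-GOF on both arrays, and the median ratio was -0.26. Over all genes tested, 25.1% were lower on both arrays. Dpt, 1 of the 7, entered the test through the control channel alone, so it could hardly appear other than lower in Tbx2-GOF. The gene that fell was Postn, for the matrix protein periostin, with 13716 and 15863 units in Tbx2-GOF ureters against 23642 and 32844 in control ureters (log2 ratio -0.92 ± 0.19, limma adjusted p = 0.0448). Pdgfra, the PDGF receptor of mesenchymal cells, lay at -0.60 ± 0.07 and Mfap5, a microfibril gene, at -0.79 ± 0.41, and neither passed. The single marker higher on both arrays was Pdgfrb, the other PDGF receptor, at 0.38 ± 0.12, which did not pass and was named after its values were seen. Col14a1, a fibril-associated collagen, lay at -0.01 ± 0.14. The summed intensity of the fibroblast list was 615152 and 521794 in Tbx2-GOF, against 587240 and 635882 in control. Col1a1, Col1a2 and Col3a1 made up most of each sum, with 163557, 159279 and 197340 in Tbx2-GOF on array 1. The sums therefore say little of the other markers. Only Clec3b was above background in no channel. None of 8 measurable cartilage, 5 tendon or 3 bone markers passed, with medians of 0.15, -0.07 and 0.07, and Matn1, Snorc, Dmp1 and Runx2 were above background in no channel. The tendon markers were uneven: Tnmd lay at -2.29 on array 1 and 0.12 on array 2, and Mkx at -0.44 and -1.12. Of the 5 tendon markers, 2 were lower on both arrays and 0 higher on both. Markers of the labelled tissue were found: 9 ureteric mesenchyme and 10 urothelial markers were measurable, with medians of -0.07 and 0.14, and of these only Upk3a, a urothelial plaque gene, passed (it fell, at -0.86 ± 0.01). The ureteric mesenchyme markers were uneven, with medians of -0.36 on array 1 and 0.04 on array 2. On both arrays 3 of these 9 were lower, Tbx18 at -0.45 ± 0.20, Foxf1 at -0.44 ± 0.60 and Tshz3 at -0.39 ± 0.41. Aldh1a2, at 0.71 ± 0.24, was the 1 higher on both. Of the 10 urothelial markers, 5 were higher on both arrays and 2 lower on both. Upk2 at 0.84 ± 0.31 and Gata3 at 0.73 ± 0.14 were among the higher ones and did not pass.

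Markers of neighbouring tissues also differed between the genotypes. Of 10 measurable skeletal muscle markers 5 fell (Acta1, Myh8, Chrna1, Tnnt3 and Tnni2), and the list had a median of -1.03 and a summed intensity of 7034 and 17673 in Tbx2-GOF ureters, against 27614 and 33004 in control ureters. Of 8 measurable liver and foetal plasma protein genes 4 fell (Afp, Alb, Ahsg and Ttr), with a median of -0.91 and sums of 2482 and 2581 in Tbx2-GOF, against 5259 and 6396 in control. Of these 8 genes, Ahsg, Ttr, Apoa1 and Fgb entered the test through the control channel alone, as did Mylpf and Ckm of the muscle list, so they could hardly appear other than lower in Tbx2-GOF. The other 4 liver genes, Afp, Alb, Apoa2 and Fgg, were well above background in both genotypes on both arrays, and of them Afp and Alb fell. Of 9 neuronal and Schwann cell markers 2 rose (Fabp7 and Th), with a median of 1.13 and sums of 80028 and 82410 in Tbx2-GOF, against 47925 and 31245 in control. Of 6 nephron progenitor markers 3 rose (Six2, Pax8 and Wnt4), with a median of 0.88 and sums of 33070 and 30134 in Tbx2-GOF, against 20529 and 20601 in control. Of these lists only Myf5, a muscle gene, was above background in no channel. None of 4 mesothelial, 6 endothelial or 4 macrophage markers passed, with medians of -0.08, 0.22 and 0.18. The part of fibroblasts or of any of these tissues in the lower Epyc and Lum signals was not tested.

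**Figure D5:**
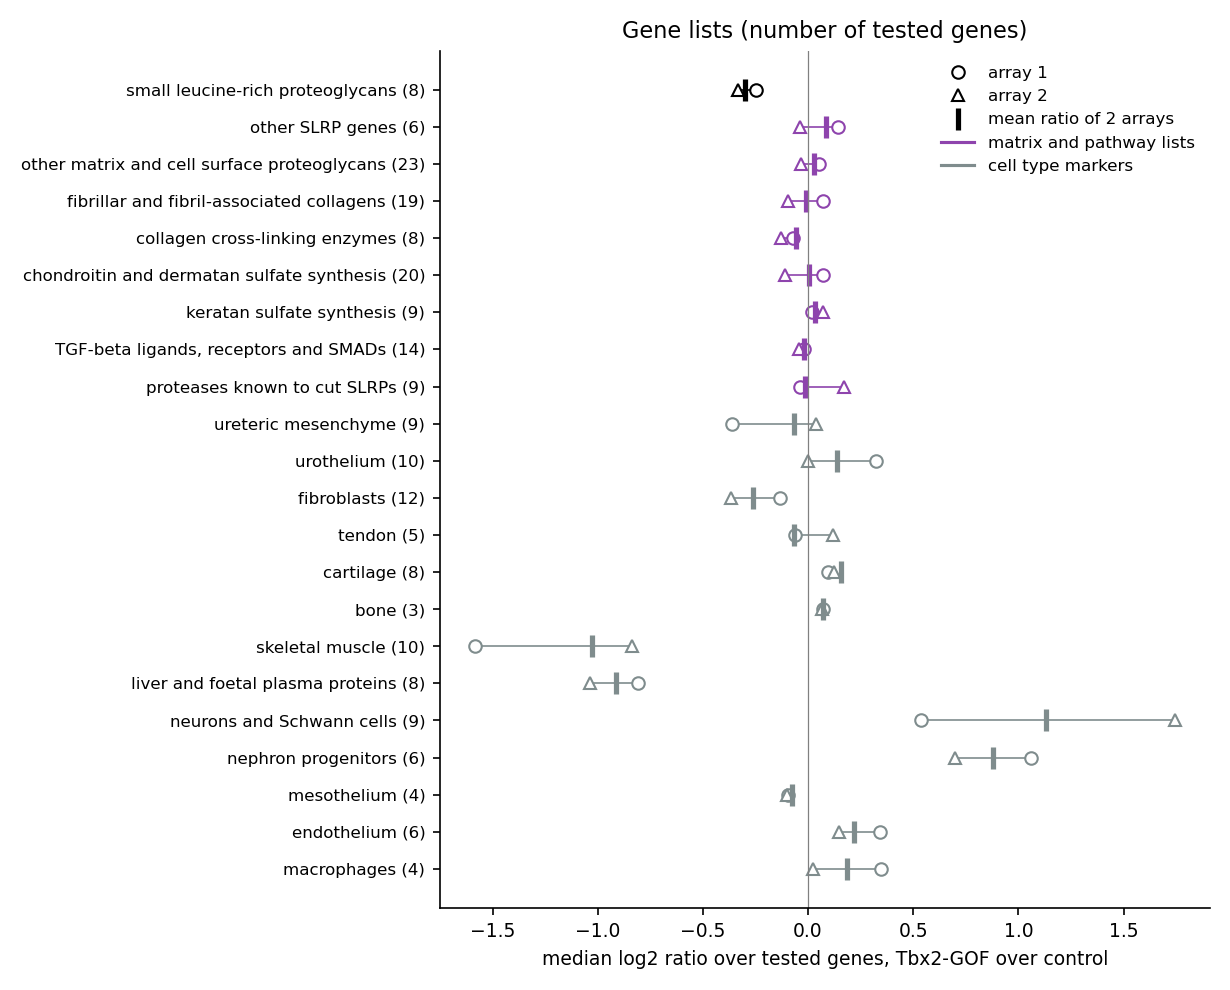
Median log2 ratio of Tbx2-GOF over control for the 8 measurable small leucine-rich proteoglycan genes (black), for matrix and pathway lists (purple) and for cell type markers (grey), with array 1 as circles, array 2 as triangles and the median of the mean ratios as a tick; numbers in brackets are tested genes. The muscle and liver lists lie at -1.03 and -0.91, the neuronal and nephron progenitor lists at 1.13 and 0.88, and every matrix and pathway list lies between -0.05 and 0.08.

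Across the whole series, 76 genes rose and 60 fell. Between 66.7% and 73.0% of probes were well above background in each channel. Tbx2 itself lay at 0.04 on array 1 and 0.56 on array 2 and did not pass the test; the sources used here do not say whether its probe lies within the transcript of the Hprt allele. Tbx18, one allele of which carries cre in Tbx2-GOF, lay at -0.31 and -0.59 and did not pass.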

How the data were processed

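Each of 2 arrays compared 1 Tbx2-GOF with 1 control ureter RNA, with the dyes swapped. Per the submitters' processing notes, spots were quantified in Agilent Feature Extraction 10.7.3.1. Per the file headers, the mean signals and local backgrounds are raw intensity values, and the processed signals are intensity values after background subtraction and dye normalization. Per the file headers, the log ratio column is a log10 with red on top. A value table deposited for the series holds a signed fold ratio whose scale, centring and direction are not stated; among probes above background, 99.2% and 98.8% of its values matched the software's log ratio, turned to Tbx2-GOF over control, within 0.01 on the log10 scale, and its median was 1 on both arrays.

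From the mean signals and backgrounds, limma 3.58.1 in R 4.3.3 was used here: normexp (offset 50) for the background and loess within arrays (span 0.3; control and outlier spots at weight 0). The log2 ratios were turned by the labelled dyes, so that positive means higher in Tbx2-GOF. Spots of 1 probe were averaged. Probes were kept (26472) where either genotype was well above background on both arrays, and the brightest kept probe stood for a gene. Normalized intensities of single channels come from loess followed by Aquantile. lmFit and eBayes tested 21098 genes, two-sided, with Benjamini-Hochberg adjustment at 0.05, and "rose" and "fell" are used of genes past it. A gene's own variance had 1 residual degree of freedom, and eBayes added 6.36 prior degrees of freedom from the variance over all genes. The p-values, those of Epyc and Lum included, thus rest largely on that pooled variance. The procedure was tested on simulated data. The small number of arrays limits the precision.

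The genes, lists and tests were chosen with earlier results of these data known. Named are all 10 genes, the neighbours within 1 Mb nearest to each cluster, the 3 genes nearest to Lum and to Ogn by ratio, and of each list the genes past the test and at most 4 farthest from 0; Col1a1, Col1a2, Col3a1 and Col14a1, Pdgfrb, and the marker genes dim in 1 genotype or set beside those, are named besides. Probe coordinates are on mm9, counted from 1, and no genome of that build was used here.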

Additional observations from a re-analysis of the deposited data

How the results depend on the processing

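The mean ratios of the 8 measurable genes were recomputed under 10 other settings, giving 80 values; none changed sign, and 6 calls were lost, 3 each for Epyc and Lum. Epyc ranged from -1.97 to -1.63 and Lum from -1.23 to -1.15. With the software's processed signals, median centring in place of loess, or the deposited value table, 0 of the 8 genes and 0 of all genes passed the limma test, while 2056, 1219 and 2030 genes had an unadjusted p under 0.05; the calls of Spock2, Col24a1, Postn and the tissue markers were lost there too. With scaling between arrays 313 genes passed, with no filter on dim probes 276, and with the mean of a gene's probes 211, against 136; Epyc and Lum were among them each time. The cause was not tested. Of the 136 main calls, 90 were kept with a normexp offset of 0, and 123 where both channels had to be above background. With the trend and robust options of eBayes 125 were kept, and with probes averaged per gene 130. All 136 were kept without background correction, with scaling between arrays and with no filter on dim probes. Where some but not all were kept, whether Spock2, Col24a1, Postn and the tissue markers were among them is not given. Without the filter, Omd joined its cluster and the cluster difference was -0.47 ± 0.42, against -0.50 ± 0.62. Leaving out 1 array leaves a value with no test. The mean of the chromosome 10 cluster then ranged from -1.11 to -0.60, that of the Ogn, Omd and Aspn cluster from -0.54 to -0.18, and their difference from -0.93 to -0.06. Kera then ranged from -0.82 to 0.023, positive without array 2, and Fmod from -0.12 to 0.011, positive without array 1. The test was itself paired, because each array yields 1 ratio in which both genotypes are already paired. Omd and Prelp lie near background, so their signal sets the limit of what can be said of them.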
